A study of Homo sapiens with 6 samples.

Results

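The 9 genes described here carry peptides from the proteasome to the cell surface on MHC class I: HLA-B, HLA-C, HLA-E, TAP1, TAP2, TAPBP, PSMB8, PSMB9 and PSMB10. They were chosen by name, with earlier results of these data known, from 25662 gene symbols. The symbols were measured in HCT116 cells, a long-established line from a human colorectal carcinoma. One group of 3 libraries was made after exposure to BMH-21 at 1 µM, which lasted 24 h. The other 3 libraries came from control cells, which received DMSO per the labels' protocols. BMH-21 inserts into DNA and blocks RNA polymerase I, which makes ribosomal RNA. The control titles give 0 h, so time in culture and drug cannot be told apart if the controls were taken at that point. The labels name no genetic change in either group, and all libraries come from a single cell line.

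MHC class I molecules display short peptides from proteins made inside the cell, and cytotoxic T cells and natural killer cells read them. The proteasome cuts proteins into peptides. In the immunoproteasome, PSMB8, PSMB9 and PSMB10 take the places of the constitutive catalytic subunits PSMB5, PSMB6 and PSMB7, and change which peptides are made. TAP1 and TAP2 form the transporter that moves peptides into the endoplasmic reticulum. Tapasin, the product of TAPBP, holds the heavy chain beside the transporter while a peptide is loaded. HLA-B and HLA-C encode classical heavy chains, and HLA-E a heavy chain that mainly shows peptides from the leader sequences of other class I chains to natural killer cells. Many of these genes are known to respond to interferon through ISRE elements, short DNA sites bound by IRF and STAT complexes.

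Of the 9 genes, 8 lie in the MHC region of chromosome 6 and PSMB10 lies on chromosome 16. In the GENCODE annotation of GRCh38, HLA-E spans chr6:30489467-30494205 on the plus strand. HLA-C spans chr6:31268749-31272130 and HLA-B chr6:31269491-31357188, both on the minus strand. The wide annotated span of HLA-B overlaps that of HLA-C, while their RefSeq starts are at 31357179 for HLA-B and 31272092 for HLA-C. TAP2 spans chr6:32821833-32838780 on the minus strand, PSMB8 chr6:32840717-32844703 on the minus strand and TAPBP chr6:33299694-33314387 on the minus strand. TAP1, at chr6:32845209-32853978 on the minus strand, lies inside the annotated span of PSMB9, chr6:32844136-32859585 on the plus strand. PSMB10 spans chr16:67934502-67937087 on the minus strand. The RefSeq starts of TAP1 and PSMB9 are 488 bases apart and point away from each other. The map of these genes shows TAP1 and PSMB9 leading in opposite directions from neighbouring RefSeq starts. PSMB8 and TAP2 lie beyond TAP1 in the direction in which TAP1 is read.

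**Figure D1:**
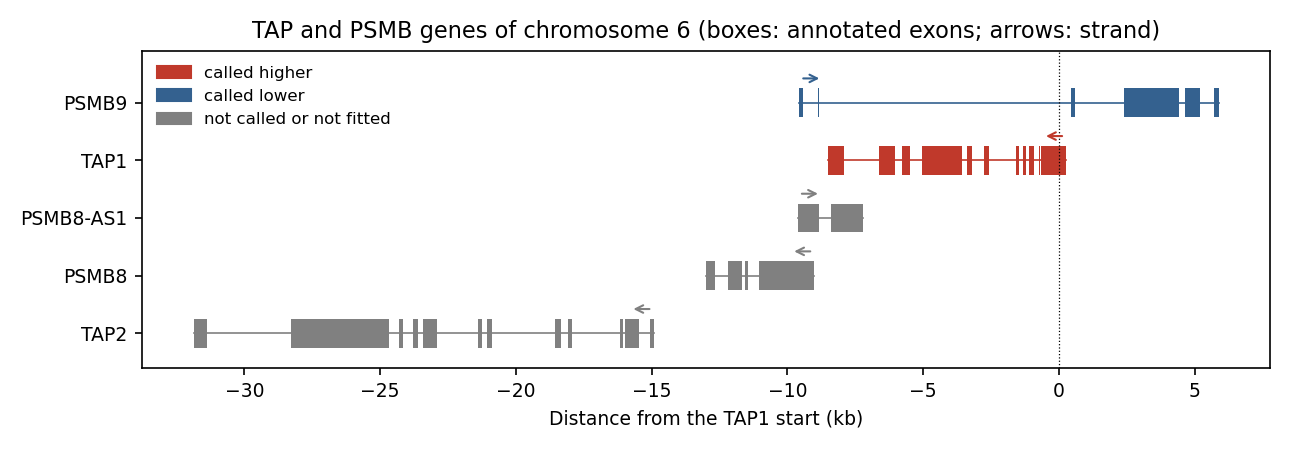
The TAP and PSMB genes of chromosome 6, drawn to scale by distance in kb from the RefSeq start of TAP1 (dotted line); boxes are annotated exons of all transcripts, lines the annotated spans and arrows the strand from the outermost annotated start. TAP1, called higher after BMH-21, and PSMB9, called lower, have RefSeq starts 488 bases apart, while the long PSMB9 span to the left comes from other annotated transcripts.

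Promoter windows of 300 bases were taken from RefSeq (GRCh38.p14) for 8 of the 9 genes, 10 windows in all because TAP1 and PSMB8 have more than 1 start. The core of an ISRE was searched as GAAANNGAAA on both strands. It was found in 5 of the 10 windows, those of TAP1, TAP2, TAPBP, PSMB8 and PSMB10, and in 3.57% of all 35116 RefSeq windows. The stretches of 30 bases around each match are shown because these 5 genes share the searched pattern while their RNA levels behaved differently. Capitals mark the matches, which overlap each other in TAP1 and TAPBP, and each stretch reads 5′ to 3′ on the minus strand, the coding strand of its gene.
TAP1 (chr6:32853816-32853845): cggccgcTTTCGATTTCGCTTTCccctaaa
TAP2 (chr6:32838778-32838807): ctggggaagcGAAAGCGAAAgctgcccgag
TAPBP (chr6:33314076-33314105): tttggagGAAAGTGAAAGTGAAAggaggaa
PSMB8 (chr6:32844032-32844061): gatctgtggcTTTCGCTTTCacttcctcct
PSMB10 (chr16:67936852-67936881): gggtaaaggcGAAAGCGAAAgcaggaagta

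The window of PSMB9, which reaches 250 bases before its start, held no such match. The ISRE matches of TAP1 lie between the RefSeq starts of TAP1 and PSMB9, upstream of that window. The PSMB9 window held the GC box GGGCGG, which 8 of the 10 windows and 45% of all windows hold. The stretch from the annotated start of TAP1 to the next annotated PSMB9 exon is shown because TAP1 and PSMB9 went opposite ways. It lies inside the wide annotated span of PSMB9. Its position is chr6:32853979-32854147 and it is written on the plus strand, the strand of PSMB9, with a GC box in capitals.
Stretch between TAP1 and PSMB9 exons: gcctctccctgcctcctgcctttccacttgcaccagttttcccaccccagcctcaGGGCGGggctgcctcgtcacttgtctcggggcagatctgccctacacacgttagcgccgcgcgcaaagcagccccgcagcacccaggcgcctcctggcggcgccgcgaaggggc
The CCAAT box (CCAAT) was found in 4 windows, those of HLA-B, HLA-C, TAP1 and PSMB9, against 34.6% of all windows. The TAP1 and PSMB9 windows share 13 bases, and their CCAAT matches are the same site in that overlap. A GAS site (TTCNNNGAA) was found in 2 windows, 1 each of TAP1 and PSMB8, against 7.66% of all windows. A p53 half-site was found in 1 window, that of PSMB10, against 6.63% of all windows. These matches describe letters in the reference and not binding in these cells.

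HLA-B and HLA-C are neighbours with similar upstream sequence, and are shown side by side because HLA-B was called changed and HLA-C was not. Over 160 bases, from 200 to 41 bases before each RefSeq start, 143 aligned bases were identical, which is 89.4% of the length, with 13 mismatches and 4 bases of each in gaps. Both stretches are on the minus strand, and capitals mark the bases that differ from the other gene.
HLA-B (chr6:31357220-31357379): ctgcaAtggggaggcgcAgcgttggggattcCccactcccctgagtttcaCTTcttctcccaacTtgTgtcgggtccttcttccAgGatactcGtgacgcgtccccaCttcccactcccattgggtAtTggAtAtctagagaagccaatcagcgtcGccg
HLA-C (chr6:31272133-31272292): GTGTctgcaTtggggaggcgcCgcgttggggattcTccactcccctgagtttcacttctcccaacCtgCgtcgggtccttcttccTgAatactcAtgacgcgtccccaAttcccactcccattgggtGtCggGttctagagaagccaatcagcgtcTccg

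Values are TPM, a transcript's share of its library corrected for gene length, so levels of different genes can be set side by side. Sequencing depth is unknown, and so is any change in RNA per cell. Between 11509 and 12001 genes per library reached 1 TPM. BMH-21 replicate 3 and control replicate 1 differed most from their own groups. On the log2 scale, mean squared deviation from the group average was 0.0696 in BMH-21 replicate 3 and 0.0586 in control replicate 1, against 0.0274 to 0.0331 in the other 4. Mitochondrial-encoded transcripts took 26.1% of TPM in BMH-21 replicate 3 and 25.8% in control replicate 1, against 20.3% to 21.6% in the other 4. Of the 9 genes, 7 were lowest in BMH-21 replicate 3 among the BMH-21 libraries and 2, TAP2 and TAPBP, were highest there. Whether this library's difference bears on a gene was tested only by leaving it out.

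After BMH-21 the parts of the presentation pathway differed in direction. TAP1 rose 2.63-fold, PSMB10 1.54-fold and HLA-B 1.29-fold on the ratio of mean TPM. TAPBP and PSMB9 fell, to ratios of 0.709 and 0.601. HLA-C, HLA-E and TAP2 did not pass the test, and PSMB8 stayed under 1 TPM in every library. A gene entered the test with at least 1 TPM in at least 3 of the 6 libraries, which 8 of the 9 genes did, and was called at an adjusted p under 0.05 (limma on log2(TPM + 1), 12041 genes). Of all genes tested, 36.4% were called, 19.4% higher and 16.9% lower, so 3 called higher and 2 called lower among these 8 are read against a comparison in which many genes changed. The median log2 fold change of the 8 was 0.10, against 0.06 for all genes tested. The libraries of the groups did not overlap for 7 of the 8, against 51.5% of all genes tested.

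**Figure D2:**
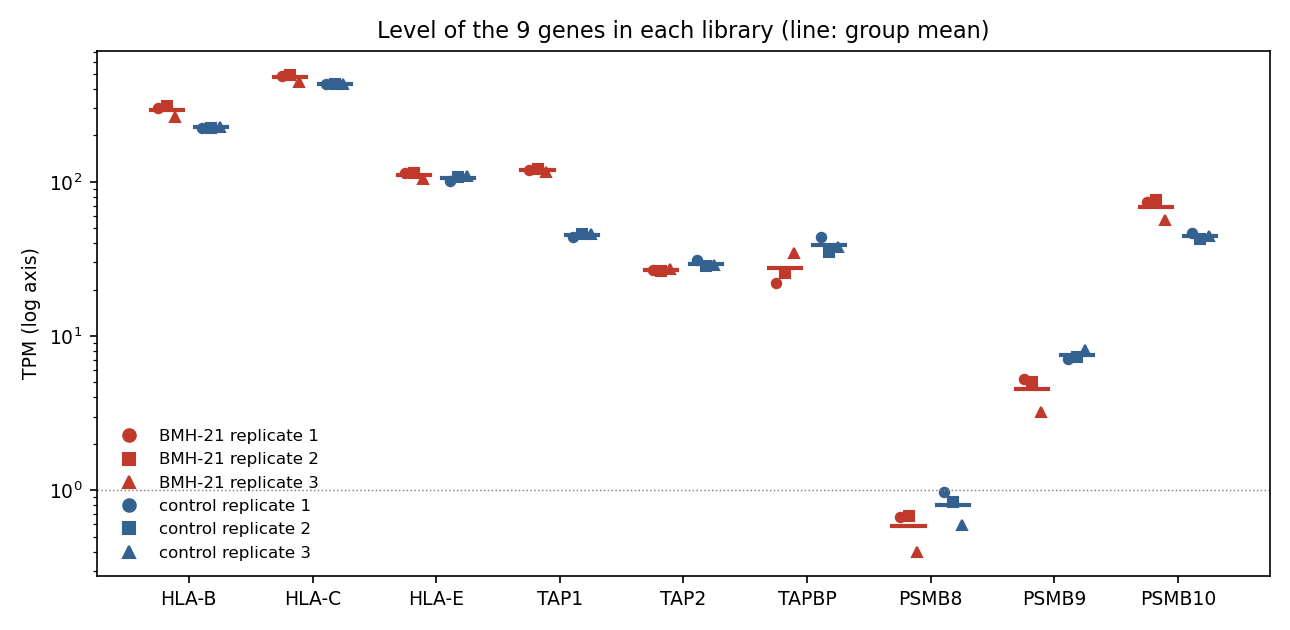
TPM of the 9 genes in each library on a log axis, with BMH-21 libraries in red left of control libraries in blue, a symbol per replicate and a line at each group mean; the dotted line is 1 TPM. TAP1 stands at 116 to 121 TPM in BMH-21 libraries and 44.0 to 45.9 TPM in control libraries. BMH-21 replicate 3 lies nearest to the controls for HLA-B, HLA-C, TAP1, TAP2, TAPBP and PSMB10, and inside the control range for HLA-E.

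HLA-C and HLA-B were the most abundant of the 9 genes in both groups. HLA-C had 488, 496 and 444 TPM in the BMH-21 libraries, against 429, 430 and 434 TPM in the control libraries. HLA-B had 301, 309 and 263 TPM in the BMH-21 libraries, against 224, 224 and 228 TPM in the control libraries. For both genes every BMH-21 library lay above every control library, and BMH-21 replicate 3 was the closest to the controls. The BMH-21 libraries had SDs of 28.1 TPM for HLA-C and 24.7 TPM for HLA-B, against 2.69 and 2.43 TPM in the control libraries (n = 3 each).

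HLA-B rose by a log2 fold change of 0.36 (SE 0.08, adjusted p = 0.00799, limma). It was called with each library left out in turn, but not when libraries were rescaled by median of ratios (0.30, adjusted p = 0.116) or by a trimmed mean of log ratios (0.30, adjusted p = 0.104). HLA-C had a log2 fold change of 0.14 (SE 0.07, adjusted p = 0.161), with a 95% interval of -0.02 to 0.31, and was not called. Without BMH-21 replicate 3 its value was 0.19 (adjusted p = 0.0125), so its call depends on that library. It also passed under quantile normalization, at 0.21 (adjusted p = 0.0167).

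As a share of HLA-B and HLA-C together, HLA-C took 61.9%, 61.6% and 62.8% of TPM in the BMH-21 libraries, against 65.8%, 65.7% and 65.6% in the control libraries. The groups did not overlap, and the share was lower after BMH-21. The means were 62.1% ± 0.635 after BMH-21 and 65.7% ± 0.105 in controls (SD, n = 3 each), a difference of -3.56 percentage points (two-sided exact permutation p = 0.1). With 3 libraries against 3, 0.1 is the smallest p this test can give. Scaling a library by any factor leaves this share as it is.

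Reads can be split between class I genes. Of the 31-base words in the annotated HLA-B transcripts, 25.5% also occurred in another gene, 8.86% in HLA-C and 16.1% in the antisense pseudogene AL671883.2. Of those of HLA-C, 17% occurred in another gene, 10.4% in HLA-B. HLA-E shared 11.8% of its words. Whether shared reads were split is not given in the sources used here, so levels of the class I genes are uncertain to that extent.

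HLA-E did not move beyond its spread. It had 113, 114 and 105 TPM in the BMH-21 libraries, against 102, 107 and 109 TPM in the control libraries. The groups overlapped, with BMH-21 replicate 3 inside the control range. The log2 fold change was 0.06 (SE 0.07, adjusted p = 0.572), with a 95% interval of -0.11 to 0.23, and its sign turned to just below 0 under both the median of ratios and the trimmed mean scaling.

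TAP1 showed the largest change of the 9 genes. It had 120, 121 and 116 TPM in the BMH-21 libraries, against 44.0, 45.7 and 45.9 TPM in the control libraries. Every BMH-21 library was far above every control library, and both groups were tight, with means of 119 ± 2.51 and 45.2 ± 1.03 TPM (SD, n = 3 each). The log2 fold change was 1.37 (SE 0.07, adjusted p = 2.21e-06), with a 95% interval of 1.21 to 1.54. It ranked 154 of the 12041 genes by log2 fold change and was called under all 17 alternatives tried, from 1.31 to 1.39.

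TAP2, the other subunit of the transporter, was not called. It had 26.6, 26.3 and 27.3 TPM in the BMH-21 libraries, against 31.1, 28.5 and 29.0 TPM in the control libraries. Every BMH-21 library lay below every control library, yet the log2 fold change of -0.14 (SE 0.09, adjusted p = 0.272) was not called, with a 95% interval of -0.34 to 0.07.

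The TAP1 to TAP2 ratio, as log2 of TPM + 1, was 2.13, 2.16 and 2.04 in the BMH-21 libraries, against 0.49, 0.66 and 0.64 in the control libraries. The subunits were therefore further apart in RNA level after BMH-21 in every library. The mean difference in this log2 ratio was 1.51 (two-sided exact permutation p = 0.1, the smallest possible). Of the 31-base words of TAP2, 31.7% also occur in AL669918.1, an annotated gene on the same strand that is not analysed here. TAP1 shared 8.89% of its words with the antisense gene PSMB8-AS1, which was at 0.488 TPM on average after BMH-21 and 0.208 TPM in controls.

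TAPBP had 22.1, 25.6 and 34.7 TPM in the BMH-21 libraries, against 43.7, 35.0 and 37.6 TPM in the control libraries. The groups did not overlap, but BMH-21 replicate 3 fell only just short of control replicate 2. The log2 fold change was -0.50 (SE 0.16, adjusted p = 0.0406). This call was among the least stable: it was lost without any single control library (adjusted p of 0.123, 0.0534 and 0.0814 without control replicates 1, 2 and 3). It was also lost without BMH-21 replicate 1 (adjusted p = 0.129) or 2 (adjusted p = 0.114), while without BMH-21 replicate 3 the value was -0.67 (adjusted p = 0.0042).

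The 3 immunoproteasome subunits differed in level and direction. PSMB10 had 74.1, 76.7 and 56.3 TPM in the BMH-21 libraries, against 46.9, 42.7 and 44.8 TPM in the control libraries. Each BMH-21 library exceeded each control library, with BMH-21 replicate 3 the nearest. PSMB10 rose by a log2 fold change of 0.60 (SE 0.12, adjusted p = 0.00537) and was called under all 17 alternatives, from 0.52 to 0.77. Of its 31-base words, 30.2% also occur in AC040162.1, an overlapping gene annotated on the same strand and not analysed here.

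PSMB9 went the other way. It had 5.26, 5.01 and 3.23 TPM in the BMH-21 libraries, against 7.07, 7.28 and 8.10 TPM in the control libraries. The groups did not overlap, and the lowest value was that of BMH-21 replicate 3. PSMB9 fell by 0.64 on the log2 scale (SE 0.19, adjusted p = 0.026). The call was lost without control replicate 2 (adjusted p = 0.0666), without control replicate 3 (adjusted p = 0.0918) and when unfiltered (adjusted p = 0.0594).

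PSMB8 was barely detected. It had 0.675, 0.683 and 0.398 TPM in the BMH-21 libraries, against 0.968, 0.837 and 0.596 TPM in the control libraries. The groups overlapped, and at this level no difference was detectable. Fitted without the filter, its log2 fold change was -0.18 (adjusted p = 0.402). Its exons share 618 bases with PSMB8-AS1 and 139 bases with PSMB9, both on the opposite strand, and a strand setting is not given in the sources used here.

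TAP1 and PSMB9, whose RefSeq starts face away from each other, moved apart. Their log2 ratio, of TPM + 1, was 4.27, 4.34 and 4.79 in the BMH-21 libraries, against 2.48, 2.50 and 2.36 in the control libraries. No BMH-21 library came near a control library. The means were 4.46 ± 0.28 and 2.45 ± 0.07 (SD, n = 3 each), a difference of 2.02 (two-sided exact permutation p = 0.1, the smallest possible). Without BMH-21 replicate 3, whose ratio was the highest, the difference was 1.86.

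PSMB8, PSMB9 and PSMB10 together took 5.85%, 6.21% and 5.71% of the TPM of the 6 catalytic subunits in the BMH-21 libraries, against 4.64%, 4.40% and 4.59% in the control libraries. Every BMH-21 library was higher than every control library. The difference in means was 1.38 percentage points (two-sided exact permutation p = 0.1, the smallest possible). Of the 3 subunits, PSMB10 was the only one called higher. It made up 13.0% ± 0.584 of itself plus PSMB7 after BMH-21 and 10.1% ± 0.369 in controls. PSMB9 made up 1.5% ± 0.237 of itself plus PSMB6 after BMH-21 and 2.28% ± 0.242 in controls. PSMB8 made up 0.137% ± 0.023 of itself plus PSMB5 after BMH-21 and 0.203% ± 0.05 in controls (SD, n = 3 each).

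**Figure D3:**
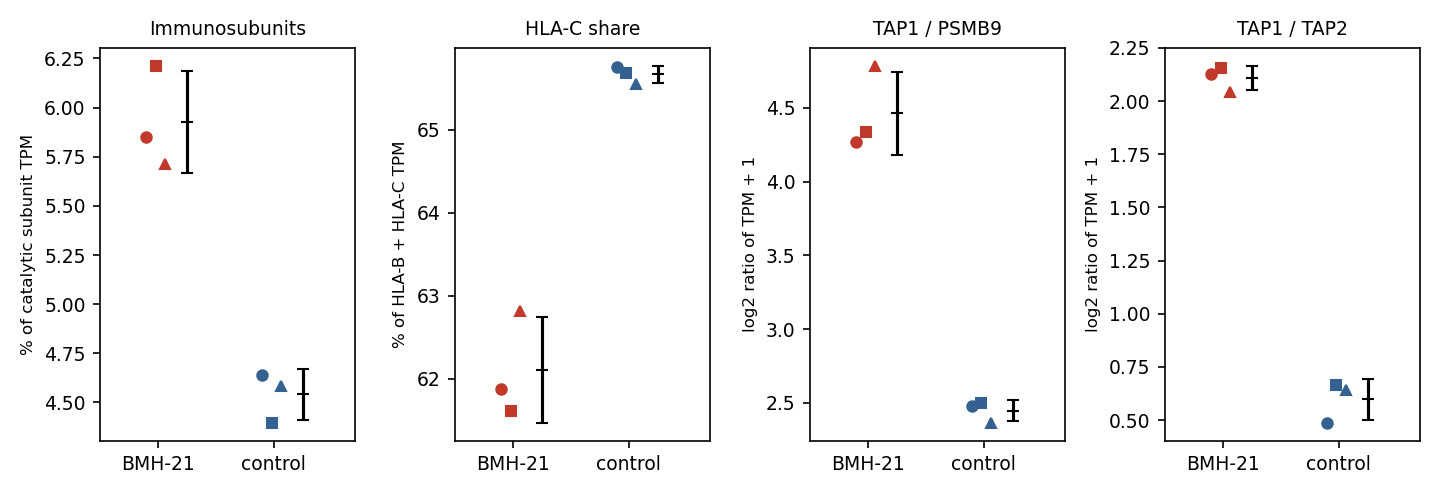
The 4 per-library ratios, with BMH-21 left of control, a symbol per replicate and the mean ± SD (n = 3) in black beside them; the vertical axes do not start at 0. The groups do not overlap in any panel: the immunosubunit share and both TAP1 ratios are higher after BMH-21, and the HLA-C share is lower.

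The order of the 9 genes by mean level changed at 1 place. After BMH-21 it ran HLA-C, HLA-B, TAP1, HLA-E, PSMB10, TAPBP, TAP2, PSMB9 and PSMB8. In controls HLA-E stood above TAP1. In controls the libraries of TAP1 overlapped those of PSMB10, and those of PSMB10 overlapped those of TAPBP, so TAP1 could not be placed above PSMB10, or PSMB10 above TAPBP. After BMH-21 the only neighbours whose libraries overlapped were TAPBP and TAP2.

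The rest of the pathway was read from the same fit. Neither HLA-F nor the light chain B2M was called by limma. B2M, which every class I heavy chain binds, averaged 459 ± 71.6 TPM after BMH-21 and 366 ± 51.0 TPM in controls (log2 fold change 0.32, adjusted p = 0.101). HLA-F averaged 11.6 TPM after BMH-21 and 12.4 TPM in controls, and HLA-G stayed under 1 TPM. Without BMH-21 replicate 3, B2M was called higher (log2 fold change 0.45, adjusted p = 0.0196). Its libraries overlapped those of HLA-C after BMH-21 and lay below them in controls.

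Of 8 genes of class I folding and peptide editing, 6 were tested, 1 rose and 2 fell. The share called over all genes tested was 36.4%. CALR, the calreticulin chaperone of the loading complex, fell by 0.46 on the log2 scale (549 ± 5.47 TPM after BMH-21 and 755 ± 17.7 TPM in controls, adjusted p = 0.000983). PDIA3, its disulfide isomerase partner, fell by 0.43 (adjusted p = 0.0469), with overlapping libraries, and TAPBP above was lower too. HM13, the signal peptide peptidase that helps release the leader peptides shown by HLA-E, rose by 0.48 (adjusted p = 0.000753). The chaperones CANX (log2 fold change 0.00) and HSPA5 (-0.19) and the trimming peptidase ERAP1 (-0.04) were not called. The PDIA3 call was lost without control replicate 2 or 3 or BMH-21 replicate 1 or 2 (adjusted p of 0.12 to 0.148), and HSPA5 passed without BMH-21 replicate 3 (-0.35, adjusted p = 0.0351). When unfiltered (adjusted p = 0.124) or without mitochondrial-encoded genes (0.0556), the PDIA3 call was lost too. ERAP2 and TAPBPL, a tapasin relative, stayed under 1 TPM in every library.

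The constitutive catalytic subunits were not called. PSMB5 averaged 420 ± 54.5 TPM after BMH-21 and 394 ± 6.05 TPM in controls, with 0 of the 3 at an unadjusted p under 0.05. PSMB6 averaged 292 ± 28.6 TPM after BMH-21 and 321 ± 12.6 TPM in controls. PSMB7 averaged 462 ± 79.1 TPM after BMH-21 and 400 ± 3.07 TPM in controls. Without BMH-21 replicate 3, PSMB5 (log2 fold change 0.19, adjusted p = 0.0131) and PSMB7 (0.34, adjusted p = 0.00206) were called higher. Of 12 other core proteasome genes, the assembly factor POMP included, 3 rose and 2 fell, with a median log2 fold change of 0.07. Either direction was called for 36.4% of all genes tested. PSMA6 rose by a log2 fold change of 0.55, PSMA5 by 0.50 and PSMA3 by 0.47, while PSMB3 fell by 0.33. PSMB2, named after its value was seen, fell by 0.31, and its call was not tried under the alternatives. The PSMA3 call was lost without control replicate 1 or BMH-21 replicate 1 or 2 (adjusted p of 0.0802, 0.108 and 0.0917), and the PSMB3 call without any single control library (0.0663, 0.0697 and 0.0945). Both calls were also lost when unfiltered and under median of ratios or trimmed mean scaling. Each was lost in 7 of 17 alternatives. Among 4 proteasome activators, PSME1, a subunit of the interferon-inducible activator PA28, fell by 0.28 (adjusted p = 0.0128). Its partner PSME2 had a log2 fold change of 0.22 (adjusted p = 0.16), PSME3 of 0.16 and PSME4 of 0.35, none called. The PSME1 call was lost without control replicate 3 (adjusted p = 0.0569), and PSME2 passed without BMH-21 replicate 3 (0.33, adjusted p = 0.0138).

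**Figure D4:**
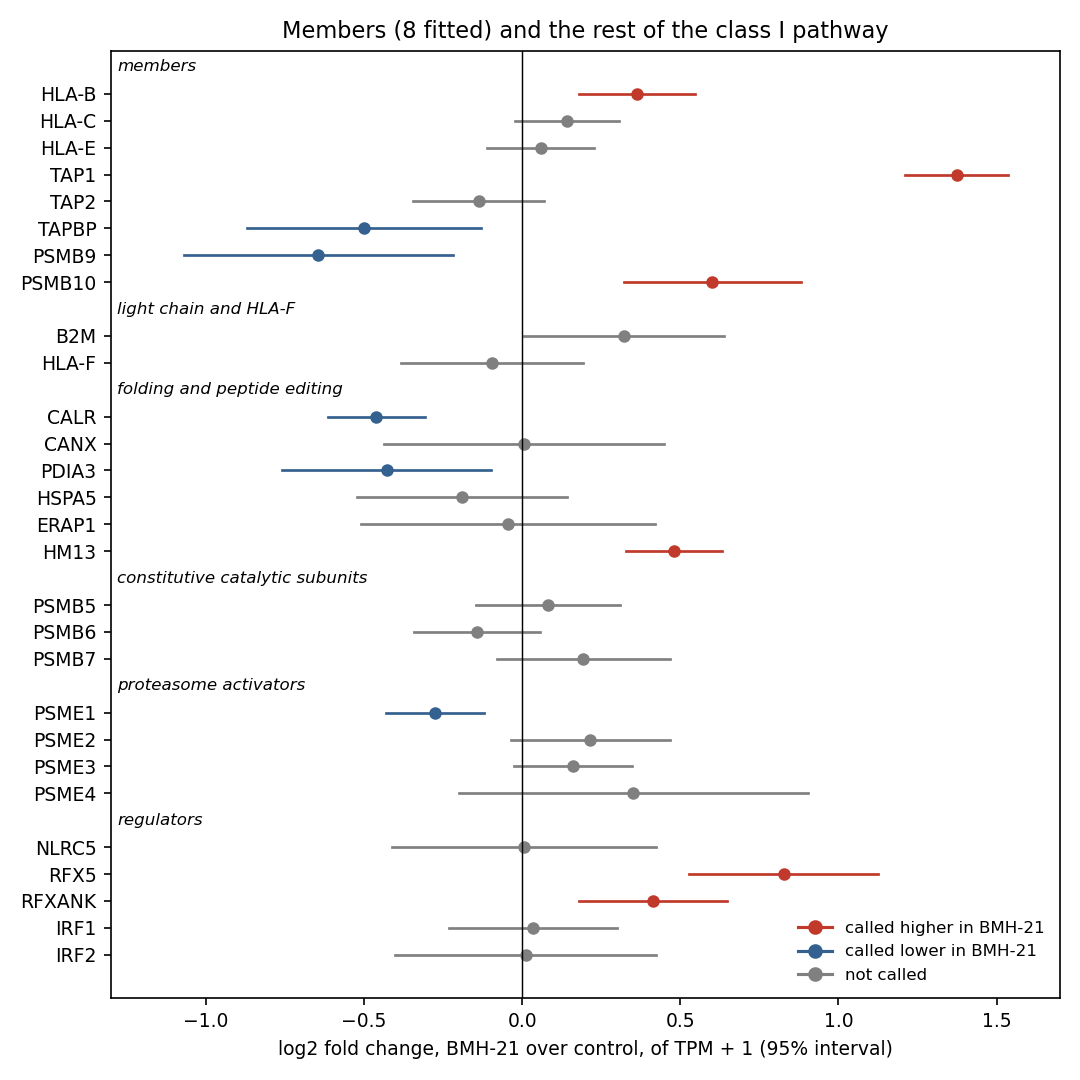
Log2 fold change of TPM + 1, BMH-21 over control, with the 95% interval from the limma fit, for the 8 fitted members and other genes of the pathway; red points were called higher, blue points lower and grey points not called. TAP1 (1.37) stands clear of the other genes shown, and the regulators NLRC5 (0.01) and IRF1 (0.03) lie near 0.

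Of 24 transcription factors and interferon signalling genes, 22 were tested, 3 rose and 1 fell, with a median log2 fold change of 0.01. Calls were made for 36.4% of all genes tested. NLRC5, the class I transactivator, averaged 3.16 ± 0.582 TPM after BMH-21 and 3.15 ± 0.65 TPM in controls (log2 fold change 0.01, adjusted p = 0.984). IRF1, an interferon-induced factor that binds ISRE elements, averaged 17.3 ± 1.43 TPM after BMH-21 and 16.9 ± 1.17 TPM in controls (log2 fold change 0.03, adjusted p = 0.852). IRF2 (0.01, adjusted p = 0.971) was not called either. RFX5, a subunit of the RFX complex on class I and class II promoters, rose by a log2 fold change of 0.83 (37.1 ± 4.31 TPM after BMH-21 and 20.5 ± 2.81 TPM in controls, adjusted p = 0.00155). RFXANK, another subunit of that complex, rose by 0.41 (adjusted p = 0.0139), and the interferon gamma receptor chain IFNGR1 by 0.69 (adjusted p = 0.00532). The RFXANK call was lost without control replicate 3 or BMH-21 replicate 1 or 2 (adjusted p of 0.0504, 0.0553 and 0.0523). It was also lost under median of ratios (adjusted p = 0.0612) and trimmed mean scaling (0.0558). TYK2, a kinase of interferon receptors, fell by 0.70 (adjusted p = 0.00297).

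The few interferon transcripts with values were at the floor. Of 7 interferon genes listed, 3 were in the table and all 3 stayed under 1 TPM in every library. IFNE, the one with the highest mean, had 0.320, 0.139 and 0.377 TPM in the BMH-21 libraries, against 0, 0.0486 and 0 TPM in the control libraries. IFNB1 and IFNG are not analysed here, so interferon RNA as a whole was not assessed.

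Most listed markers of HCT116's epithelial origin were present, and those of other cell types were low or absent. Of 8 colon epithelial markers in the table, 6 were tested and 5 rose, against 19.4% called higher of all genes tested. KRT8, a keratin, was at 6586 TPM after BMH-21 and 2813 TPM in controls. KRT19 was higher by 1.72, KRT18 by 0.72 and EPCAM by 0.53 on the log2 scale. CDX2, a transcription factor named after its value was seen, was higher by 0.47, and its call was not tried under the alternatives. VIL1 and LGR5 stayed under 1 TPM. The 9 leukocyte markers summed to 1.26 to 2.46 TPM in the BMH-21 libraries and 3.87 to 4.92 TPM in the control libraries, with CD3D and NKG7 at 0 in all 6. The only one tested, CD68, had a log2 fold change of -1.6. The 8 fibroblast and endothelial markers summed to 2.08 to 3.90 TPM in the BMH-21 libraries and 3.93 to 5.06 TPM in the control libraries, with COL1A1 the only one tested, lower at a log2 fold change of -0.61, a call lost without any library but BMH-21 replicate 3 (adjusted p of 0.0609 to 0.142). CDH1, an adhesion molecule and the only other epithelial marker tested, had a log2 fold change of -0.04 and was not called. The 5 epithelial markers called were higher, as were TAP1, HLA-B and PSMB10, and their part in those results was not tested.

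For each of the 8 genes, the genes with the most similar profile over the 6 libraries were found among 8310 genes with a mean of at least 5 TPM. The measure was the root mean square distance between profiles of log2(TPM + 1), each centred on its own mean. TAP1 lay closest to LGALS3 (distance 0.0363), which averaged 240 TPM after BMH-21 and 95.1 TPM in controls, and to NME1-NME2 (0.0385). PSMB10 lay closest to NR1H2 (0.0302) and BBIP1 (0.0477), and PSMB9 to HAX1 (0.0577) and ANAPC11 (0.0607). HLA-B lay closest to COMMD5 (0.0265) and LRPAP1 (0.0276), HLA-C to APEH (0.0164) and AGBL5 (0.0212), and HLA-E to YKT6 (0.0151) and VPS11 (0.0182). TAP2 lay closest to ABTB1 (0.0184) and PRXL2B (0.0195), and TAPBP to ANKRD52 (0.0521) and FIZ1 (0.0522). For none of the 8 was another of the 9 genes among the closest pair. Only a closest pair out of 8310 genes was kept for each, so this cannot tell whether the 9 genes vary together. These distances share the same 6 libraries and are given as a description.

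**Figure D5:**
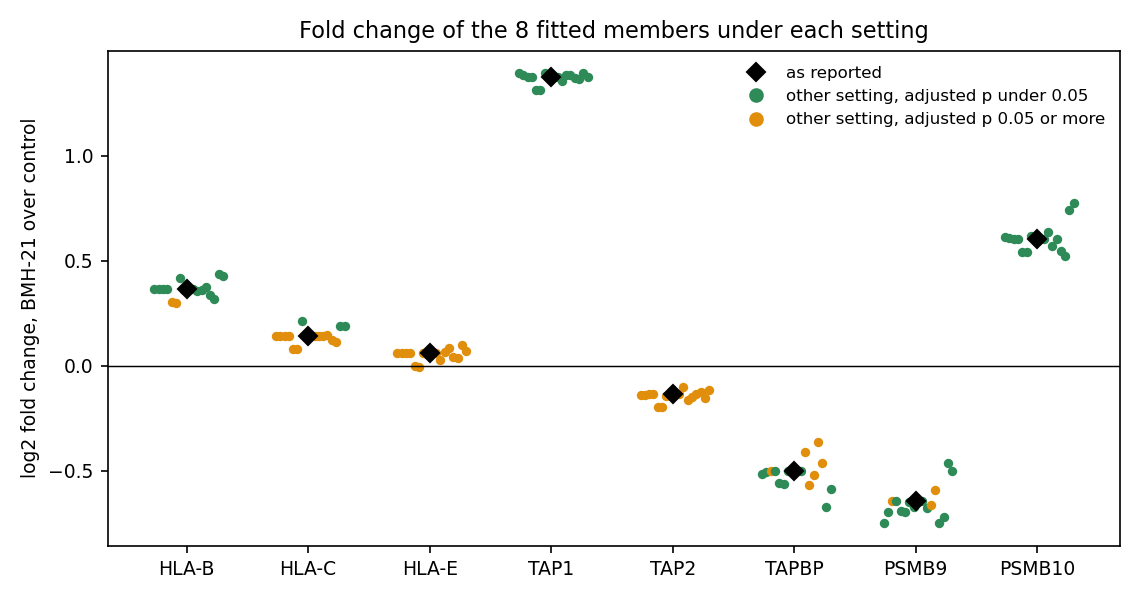
Log2 fold change, BMH-21 over control, of the 8 fitted members as reported (black diamonds) and under each of the 17 alternatives (points), which were green where the adjusted p was under 0.05 and orange where it was not. TAP1 and PSMB10 are green throughout, while TAPBP is orange in 8 alternatives, PSMB9 in 3 and HLA-B in 2.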

How the data were processed

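RNA of HCT116 cells was measured by RNA sequencing in 3 BMH-21 and 3 control libraries. The deposited values are TPM per gene and library, made by the authors. Per the submitters' processing notes, STAR, Salmon and GRCh38 were used, with roles and versions unstated. Annotation, strandedness and filtering were not given in the sources used here. While the labels name polyA RNA, the protocol describes ribosomal RNA removal, so the enrichment step is uncertain. Replicates are described as biological in the design text. Limma p-values set the difference between groups against the spread between these samples, which is estimated partly from all genes tested.

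Here limma 3.58.1 in R 4.3.3 was fitted to log2(TPM + 1), a pseudocount of 1, with an intensity trend and no covariate, over 12041 genes with TPM of at least 1 in at least 3 libraries. P-values are two-sided with Benjamini-Hochberg adjustment, and calls were made under 0.05. Ratios per library were compared by exact permutation (scipy 1.17.1). The fit was checked on simulated data in which genes varied independently, so the check does not cover a library that deviates over many genes. Fold changes on this scale understate those of low genes. Depth is unknown, so no counting interval is given.

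The members and gene lists were chosen with earlier results of these data known. Named genes are the members, the listed pathway genes, and up to 4 called genes of each list with the largest change, or the one with the highest mean; some that meet this rule are not reported here. Coordinates come from GENCODE release 29, and promoters from RefSeq (GRCh38.p14). Alternatives covered the pseudocount, filter, scaling, trend, replicate block and each library left out. Of the listed genes, CDX1, IFNB1, IFNG, IFNL2, IFNK, PTPRC, MS4A1, HCG26 and HLA-S are not analysed here.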

Additional observations from a re-analysis of the deposited data

How the results depend on the processing

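TAP1 and PSMB10 kept their direction and call under all 17 alternatives. The count of members called lower, 2 as reported, was 0 with no filter, 1 without mitochondrial-encoded genes and 1 without the variance trend, and 0 to 2 with single libraries left out. The cause was not tested. The members called higher numbered 2 to 4 over all alternatives. Leaving out BMH-21 replicate 3 together with control replicate 1, 4144 genes were called lower, against 2040 as reported, and CANX reversed to a log2 fold change of -0.37 (adjusted p = 0.0027). There the median over all genes was -0.07 on the log2 scale, against 0.06 as reported, and the cause was not tested. HLA-E, never called, had values of -0.001 and -0.005 under the median of ratios and trimmed mean scalings. The 4 ratios kept their direction under every alternative, but with 3 libraries against 3 their test cannot reach 0.05.

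With a replicate block, 2503 genes were called higher and 2105 lower, with 3 members higher and 2 lower. Same-numbered libraries had correlations of deviations of 0.0444, -0.139 and 0.0193, so the numbers were not taken to pair samples. Of the 40 other named genes tested, 23 kept their side of the threshold throughout, and 19 of these also kept their sign. Low TPM limits PSMB8 and PSMB9 most.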

Other observations

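Among 13 class I-like and NKG2D ligand genes, 10 were tested, 3 rose and 3 fell, and the libraries of 7 did not overlap. Over all genes tested, 36.4% were called and 51.5% did not overlap. MR1, which presents microbial metabolites to innate-like T cells, averaged 8.43 ± 0.895 TPM after BMH-21 and 4.55 ± 0.688 TPM in controls (log2 fold change 0.77, adjusted p = 0.00623). RAET1E, an NKG2D ligand, averaged 3.20 ± 0.221 TPM after BMH-21 and 1.76 ± 0.281 TPM in controls (0.61, adjusted p = 0.0141), a call lost without BMH-21 replicate 2 (adjusted p = 0.0561). ULBP1, another NKG2D ligand, averaged 0.541 ± 0.152 TPM after BMH-21 and 1.79 ± 0.225 TPM in controls (-0.86, adjusted p = 0.0022). HFE, a class I-like regulator of iron uptake, averaged 2.53 ± 0.849 TPM after BMH-21 and 5.80 ± 1.54 TPM in controls (-0.95, adjusted p = 0.0154), a call lost without control replicate 2 or 3 or BMH-21 replicate 2 (adjusted p of 0.0517, 0.0561 and 0.0605). The HFE call was also lost when unfiltered (adjusted p = 0.0539). The stress-induced NKG2D ligands MICA and MICB, neighbours of HLA-B, differed in direction. They were named after their values were seen, and their calls were not tried under the alternatives. MICA averaged 51.9 ± 1.95 TPM after BMH-21 and 42.8 ± 1.38 TPM in controls (0.27, adjusted p = 0.0284). MICB averaged 23.5 ± 2.83 TPM after BMH-21 and 33.0 ± 0.417 TPM in controls (-0.48, adjusted p = 0.0087).

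By limma, 36.4% of all genes tested were called. Of 12 MHC class II genes, 7 were tested and 0 were called by limma, with 2 at an unadjusted p under 0.05. The one with the highest mean, HLA-DMA, averaged 7.66 ± 0.411 TPM after BMH-21 and 10.0 ± 0.7 TPM in controls (-0.35, adjusted p = 0.0705). It was called lower in 4 of 17 alternatives: median of ratios scaling (adjusted p = 0.0408), trimmed mean scaling (0.0375), no variance trend (0.0369), and BMH-21 replicate 3 left out together with control replicate 1 (0.0344). Its adjusted p over all alternatives was 0.0344 to 0.224. Of 10 overlapping or near-identical loci, 4 were tested and 1 was called, against 36.4% of all genes tested. It was the class I pseudogene HLA-J, which averaged 1.88 ± 0.091 TPM after BMH-21 and 0.88 ± 0.181 TPM in controls (0.62, adjusted p = 0.00958).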
